A study of Mus musculus with 8 samples.

Results

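The cells described here were enterocytes, the absorptive cells of the gut lining, from mouse small intestinal organoids grown alone or in coculture. A barcode entered the set when it held 500 or more detected genes, no more than 20% mitochondrial UMIs (unique molecular identifiers, the counted RNA molecules), and 50 or more UMIs of Anpep, Sis and Apoa4 together. Barcodes with 5 or more UMIs of the cycling genes Mki67 and Top2a were left out, as were those with 5 or more UMIs per 10000 of Ly6d, Clu, Anxa1 and Sprr1a, genes of a regenerative epithelial state. Of 2051 deposited organoid barcodes 1577 passed the gene and mitochondrial limits and 350 formed the set, 89 from the control library and 261 from the coculture library. The series held 19539 single-cell barcodes in all.

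Organoids came from the small intestine of C57BL/6 mice at passage 1 and carried the treatment label CTRL or COCULTURE. The labels of these samples do not name the partner of the coculture. For each culture 16 wells were pooled and 100000 epithelial cells were sorted before capture in 1 library. The study also holds intestinal tissue, of which the small intestinal single-cell library is used below for levels only. Because each condition was 1 library, no difference between conditions has a replicate check and no test between conditions was possible. Values are given side by side, and the intervals printed are exact 95% intervals that cover counting error only.

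Enterocytes are made in the intestinal crypt and move up the villus, where they carry a brush border of microvilli with digestive enzymes and nutrient transporters. They take up fatty acids and monoglycerides, rebuild them into triglyceride and export them in chylomicrons built on apolipoprotein B. They also express conjugating enzymes that process plant compounds, drugs and lipid peroxides from food. Genes change along the villus axis, and old enterocytes are shed near the tip after remodelling of their junctions.

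The control library held 46236011 UMIs in 818 barcodes and the coculture library 100452728 in 1233. The libraries shared 0 barcodes. Within the set a median control cell had 71627 UMIs (lowest 2273, highest 195698) and 6113 genes, and a median coculture cell 83355 UMIs (2882 to 254693) and 6385 genes. The median share of mitochondrial UMIs was 9.19% in control and 7.77% in coculture, and that of ribosomal protein genes 11.4% and 16.0%. These shares moved with the condition, and their part in the results below was not tested. With at most 10% mitochondrial UMIs the set held 52 control and 203 coculture cells. Of the 90 listed genes past 2-fold, 82 stayed past it among those cells. The other 8 came within 2-fold, with log2 ratios of coculture over control of 0.92 for Reg3g, 0.91 for Ces1f, 0.89 for Isx and Tnfaip2, 0.86 for Nupr1, 0.83 for Ugt2b5, -0.35 for Pdk4 and -0.84 for Apob.

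Absorptive cells made up 89 of 540 control barcodes that passed the gene and mitochondrial limits (16.5%, exact binomial interval 13.5 to 19.9) and 261 of 1037 coculture barcodes (25.2%, 22.6 to 27.9). The difference was 8.69 percentage points, with a counting interval of 4.47 to 12.7. The rule uses UMI counts and coculture cells were deeper, so the share moves with depth as well. With limits set per 10000 UMIs the shares were 20.0% and 27.0%. The cycling limit removed 8 control and 39 coculture barcodes, and the regenerative limit 14 and 15. Just inside the absorptive limit, at 50 to 59 UMIs, lay 1 control and 11 coculture cells. Just outside it, at 40 to 49 UMIs, lay 8 and 14 barcodes. The highest regenerative sum inside the set was 4.40 per 10000 in control and 4.52 in coculture, and the lowest outside it 5.14 and 5.27.

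The rule used 3 of the 5 absorptive markers summed here, so a high sum follows from the choice. The summed level of Anpep, Sis, Apoa4, Fabp1 and Rbp2 ran from 21.1 through a median of 311 to 865 UMIs per 10000 in control cells and from 14.3 through 312 to 925 in coculture cells. By the same rule 231 tissue cells of the small intestine had a median of 97.5. Fabp1, which binds fatty acids in the cytosol, and Rbp2, which binds retinol, were not used to choose cells. The label was checked against these 2 genes. Fabp1 had a median of 102 UMIs per 10000 in control (0.540 to 529) and 122 in coculture (0.614 to 426). Rbp2 had medians of 116 (7.07 to 341) and 104 (0.672 to 628). The ranges overlapped for both genes, and that of Rbp2 was wider in coculture at both ends.

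A few cells went against the label. Enteroendocrine markers summed to 10 or more UMIs per 10000 in 1 control cell and 7 coculture cells. Those 7 cells held 99.7% of the Cck, 99.5% of the Gcg, 99.2% of the Chga and 98.0% of the Sct UMIs of the coculture set, all hormones or granule proteins of enteroendocrine cells. They had a median of 26.1 Sis UMIs per 10000 but only 1.39 of Fabp1, 2.47 of Rbp2 and 0.168 of Apoa4. Goblet markers reached 10 per 10000 in 3 control and 8 coculture cells and Paneth markers in 3 and 2. Tuft markers reached it in 0 cells. In the coculture set lymphatic endothelial markers summed to 110 UMIs with 4 of 7 genes at 0, blood endothelial markers to 13 with 5 of 6 at 0, fibroblast markers to 2 with 4 of 6 at 0 and immune markers to 22 with 5 of 7 at 0. The control sums were 11, 3, 0 and 10 UMIs. Leaving out the cells with other lineage markers gave 83 control and 249 coculture cells. Without them the ratio of coculture over control went from 10.87 to 2.55 on the log2 scale for Cck, which had 3 control UMIs. For Agr2 of goblet cells it went from 3.23 to 0.80. Gcg had 0 control UMIs, and counts under 3 were set to 3. Its values of 8.04 with those cells and 0.47 without them are thus lower bounds.

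The genes that chose the cells were not equal between the libraries, which describes the set and is no finding. Apoa4, an apolipoprotein of chylomicrons, was at 7414 CPM (the gene's summed UMIs per 1000000 UMIs of the set in that library) in control and 3887 in coculture, a log2 ratio of coculture over control of -0.93. Sis, the sucrase-isomaltase of the brush border, was at 1226 and 1413 CPM (0.20). Its ratio ran from -0.12 to 0.37 across the alternatives and so had no settled sign. Anpep, aminopeptidase N, was at 93.4 and 234 CPM (1.33). Apoa4 thus gave a larger part of the UMIs that chose the cells in control, and Anpep a larger part in coculture. The sum of the 3 genes had a median of 58.6 UMIs per 10000 in control and 41.9 in coculture.

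Across the transcriptome the libraries differed little. Of 7266 genes with at least 100 UMIs in the library where they were higher, the median log2 ratio was 0.073, with quartiles of -0.23 and 0.33. In coculture 147 genes were at least 2-fold higher (2.02%) and 177 at least 2-fold lower (2.44%). The smaller control library sets a higher CPM for 100 UMIs (14.9) than coculture does (4.38), so low genes could enter the count mainly on the higher side. With at least 15 CPM required in the higher library, 45 of 5844 genes were at least 2-fold higher (0.77%) and 176 at least 2-fold lower (3.01%). Without the cells carrying other lineage markers 97 of 7034 tested genes were at least 2-fold higher and 192 at least 2-fold lower.

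**Figure D1:**
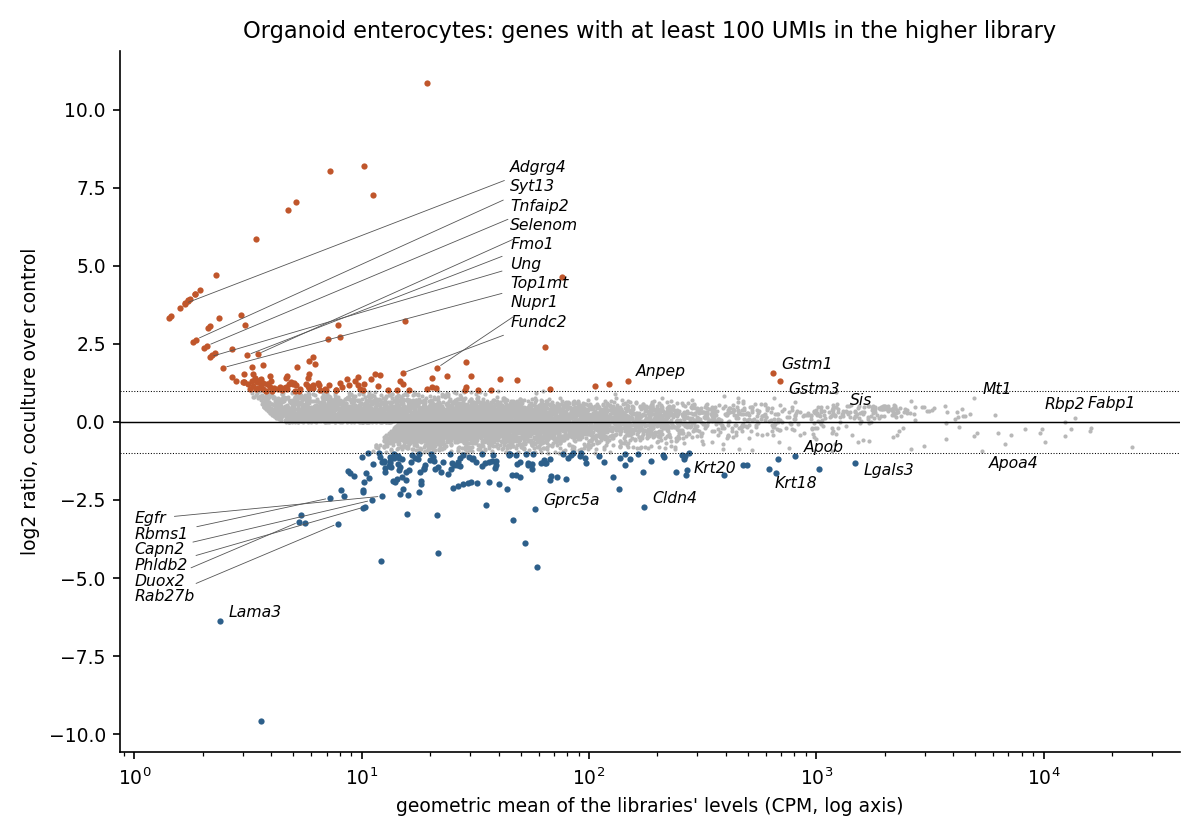
Log2 ratio of coculture over control CPM (vertical axis) against the geometric mean of the libraries' CPM (horizontal log axis) for 7266 genes, 1 point per gene, with orange points at least 2-fold higher, blue points at least 2-fold lower and grey points between. Gstm1 and Gstm3 stand out among higher genes by level, with Cldn4, Krt18, Krt20 and Lgals3 among the lower ones.

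Cells within each library were not uniform, and both held a tail of cells high in Cldn4. Cldn4 encodes claudin 4, a tight junction protein. It was at 449 CPM in control and 67.7 in coculture, a log2 ratio of -2.73 (-2.82 to -2.64). Its per-cell level ran from 0 through a median of 0.163 to 38.5 UMIs per 10000 in control and from 0 through 0 to 19.2 in coculture. The ranges overlapped, but the upper tail held more of the control cells. A level of 5 or more per 10000 was reached by 24 of 89 control cells (27.0%, exact binomial interval 18.1 to 37.4) and 16 of 261 coculture cells (6.13%, 3.54 to 9.76). This cut was chosen after the values were seen and marks a range, not a cell type. In control 4 cells and in coculture 9 cells lay between 4 and 6 per 10000.

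The Cldn4-high cells shared other features in both libraries. Among control cells the summed glutathione S-transferase level had a median of 15.5 UMIs per 10000 in the 24 Cldn4-high cells and 45.7 in the other 65. Among coculture cells the medians were 18.8 and 57.2. Fabp1 and Rbp2 together followed the same order, with medians of 94.2 and 241 in control and 104 and 248 in coculture. Sis, which the rule used, so that a cell low in it entered through Apoa4 or Anpep, was at 1.11 and 12.2 in control and at 2.55 and 12.5 in coculture. The actin, keratin and junction genes ran the other way, at 681 and 264 in control and 525 and 248 in coculture. Immediate early genes, which switch on within minutes of a stimulus, were at 46.4 and 16.9 in control and 47.1 and 15.7 in coculture. Nuclear genes of oxidative phosphorylation were at 110 and 194, and at 127 and 210.

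Depth and mitochondrial share differed less between these cells than the gene groups just given did, but not less than every list. Villus tip genes had medians of 121 and 139 in control and 83.4 and 99.0 in coculture. Cholesterol synthesis genes were at 42.2 and 49.5, and at 27.8 and 44.4. The part of depth in these differences was not tested. In control the Cldn4-high cells had a median of 57074 UMIs against 72823 in the others, and in coculture 61204 against 84102. Their median mitochondrial shares were 8.97% and 9.34% in control and 8.68% and 7.70% in coculture. Across the 89 control cells Cldn4 had a Spearman correlation of 0.65 with Krt20 and -0.56 with Gstm3, and across the 261 coculture cells 0.38 and -0.50. These describe cells of 1 library that share preparation and depth, and carry no test.

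**Figure D2:**
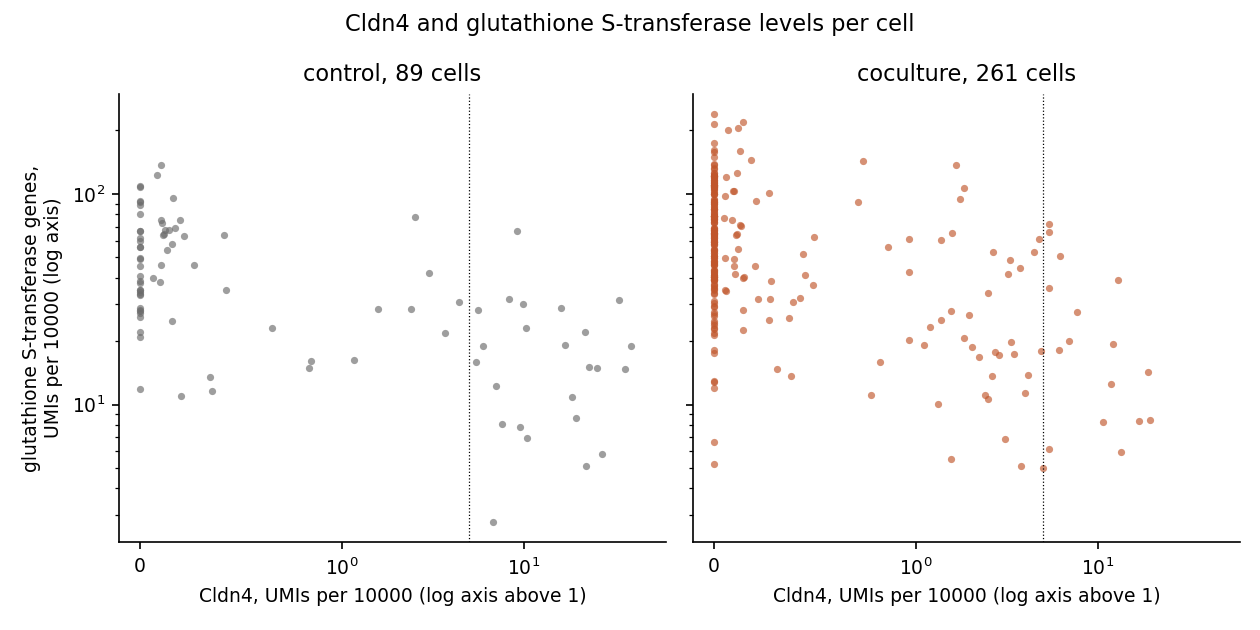
Summed glutathione S-transferase UMIs per 10000 (vertical log axis) against Cldn4 UMIs per 10000 (horizontal axis, logarithmic above 1) for each control cell (left) and coculture cell (right), with a dotted line at 5 Cldn4 UMIs per 10000. Cells right of the line, 24 of 89 in control and 16 of 261 in coculture, lie mostly below the medians of 45.7 and 57.2 of the cells left of it.

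Because these cells took unequal shares of the libraries, the gene, list and share comparisons of the set were also made without them, on 65 control and 245 coculture cells. Cldn4 was itself lower in coculture. Leaving out cells high in it can therefore bring genes that follow Cldn4 nearer to equal values by the choice alone. Values without these cells describe the set and test no cause. Of 6626 tested genes 39 then were at least 2-fold lower in coculture, in place of 177 of 7266. The number at least 2-fold higher was 105 in place of 147. The share of the passing barcodes in the set was then 12.04% and 23.6%. Among the lower genes named below, the value without the Cldn4-high cells ranged from beyond the full value to one of opposite sign.

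The 250 bases before the start of Cldn4 are printed here because its level marks the tail of cells described above. They also hold 2 copies of TGANTCA, a loose form of the AP-1 motif, which dimers of the Fos and Jun proteins bind. N stands for any base, so the pattern is wider than the TGACTCA that Cldn4 holds. Bases are from RefSeq on GRCm38.p6, 5′ to 3′ along the gene's strand, with the motif in capitals.
Cldn4 chr5:134946935-134947184 (minus strand): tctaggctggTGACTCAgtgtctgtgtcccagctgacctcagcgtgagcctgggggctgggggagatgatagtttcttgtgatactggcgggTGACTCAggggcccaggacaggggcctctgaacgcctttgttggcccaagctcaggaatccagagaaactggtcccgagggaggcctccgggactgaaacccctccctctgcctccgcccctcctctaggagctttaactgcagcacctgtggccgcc
The copies start 240 and 158 bases before the gene's start. TGANTCA, searched on both strands, lay in 6.75% of 32851 such windows and in 5.59% of the 5845 windows of tested genes. It lay in 21 of 132 windows of genes at least 2-fold lower in coculture (15.9%) and in 13 of 118 windows of genes at least 2-fold higher (11.02%). A match describes letters only and is no evidence of binding.

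Of the 28 lists and 14 families, the glutathione S-transferases, which join glutathione to electrophiles and lipid peroxidation products, held the most genes higher in coculture. Of 26 family genes 22 had enough UMIs, 6 were at least 2-fold higher in coculture against a background of 2.02%, 0 were at least 2-fold lower, and 20 lay above 0. The family median was 0.55, against 0.073 over all genes. Its per-cell sum had a median of 33.5 UMIs per 10000 in control and 53.9 in coculture. Without the Cldn4-high cells the family median was 0.30, which lies within the quartiles of all genes. The family was gathered after values were seen.

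Gstm1, of the mu class, had the largest ratio. Its level ran from 0 through a median of 0.632 to 33.9 UMIs per 10000 in control cells and from 0 through 5.69 to 84.8 in coculture cells. The ranges overlapped, while 17 of 89 control cells (19.1%) and 140 of 261 coculture cells (53.6%) held 5 or more per 10000. Summed, it was at 375 CPM in control and 1119 in coculture, a log2 ratio of 1.58 (1.52 to 1.64). Thinned to 10000 UMIs, 50.6% of 85 control and 82.8% of 256 coculture cells kept at least 1 Gstm1 UMI. The ratio was 1.205 without the Cldn4-high cells and 1.64 without the cells carrying other lineage markers. In tissue cells chosen by the same rule Gstm1 was at 98.9 CPM.

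Gstm3, another mu class gene, had a like distribution. Its level ran from 0 through 0.692 to 38.5 UMIs per 10000 in control and from 0 through 6.74 to 70.9 in coculture, with 18 of 89 (20.2%) and 152 of 261 cells (58.2%) at 5 or more. It was at 443 CPM in control and 1089 in coculture, a log2 ratio of 1.30 (1.24 to 1.35), and 0.94 without the Cldn4-high cells. Across cells the level of Gstm3 followed that of Gstm1, with a Spearman correlation of 0.76 over 89 control cells and 0.85 over 261 coculture cells. The mu genes are close copies in 1 cluster on chromosome 3, and reads that fit several of them could have been split between them or dropped, so each gene's own ratio is uncertain.

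The upstream windows of Gstm1 and Gstm3 are printed because both genes moved together across cells. Bases are from RefSeq on GRCm38.p6, 5′ to 3′ along each gene's strand.
Gstm1 chr3:108017819-108018068 (minus strand): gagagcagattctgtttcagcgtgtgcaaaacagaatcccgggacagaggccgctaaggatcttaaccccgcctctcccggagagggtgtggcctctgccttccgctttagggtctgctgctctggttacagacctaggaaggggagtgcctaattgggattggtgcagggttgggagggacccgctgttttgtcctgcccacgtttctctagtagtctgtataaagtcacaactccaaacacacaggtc
Gstm3 chr3:107969175-107969424 (minus strand): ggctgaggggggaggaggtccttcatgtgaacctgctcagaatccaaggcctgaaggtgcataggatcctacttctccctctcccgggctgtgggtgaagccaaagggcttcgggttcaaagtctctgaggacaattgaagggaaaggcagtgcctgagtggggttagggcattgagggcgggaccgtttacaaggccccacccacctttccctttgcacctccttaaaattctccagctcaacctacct
Aligned end to end, they were identical in 150 of 264 columns (56.8%), the highest of 21 pairs among 7 family genes, with 42.8% to 49.5% for the others. Neither window held TGACNNNGC, the core of the antioxidant response element, or TGANTCA. The window of Gsta3, an alpha class gene, is given because it was the only 1 of the 6 family genes at least 2-fold higher whose window held the core, in capitals, 121 bases before the start.
Gsta3 chr1:21240335-21240584 (plus strand): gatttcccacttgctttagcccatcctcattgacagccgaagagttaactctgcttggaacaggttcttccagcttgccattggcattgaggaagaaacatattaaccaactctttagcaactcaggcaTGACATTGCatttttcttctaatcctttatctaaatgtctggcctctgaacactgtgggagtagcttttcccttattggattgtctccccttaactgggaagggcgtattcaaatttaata
TGACNNNGC, searched on both strands, lay in 10.2% of all windows and 14.2% of those of tested genes, in 18 of 118 windows of genes at least 2-fold higher (15.3%) and in 24 of 132 of genes at least 2-fold lower (18.2%). The core was thus no more frequent upstream of the higher genes than of the lower ones.

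Of the other transferases 4 were at least 2-fold higher in coculture. Gsta3 had 48 UMIs in control and 467 in coculture, a log2 ratio of 1.52 (1.09 to 1.98), and Gstm4 84 and 763 (1.42, 1.09 to 1.76). Gstp3, of the pi class, was at 1.16 and Gstm2 at 1.12, the latter at 0.78 without the Cldn4-high cells. Between the 2-fold limits lay Gstm6 at 0.93, Gstm7 at 0.87, Gstt3 at 0.77 and the microsomal Mgst1 at 0.62, which was at 651 and 1003 CPM. Gsta1 (0.062), Gsta4 (0.19), Gsto1 (-0.098) and Gstk1 (-0.094) were near equal. The higher ratios were thus found mostly in the mu class and not in every class.

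Other enzymes that conjugate, reduce or cleave such compounds followed in part. UDP-glucuronosyltransferases, which attach glucuronic acid, had 2 of 7 tested genes at least 2-fold higher, against 2.02% of all genes (Ugt2b5 at 1.38, Ugt2b36 at 1.27) and a median of 0.63. Aldo-keto reductases had 1 of 8 (Akr1c19 at 1.48, from 122 and 1154 UMIs) and a median of 0.48. Carboxylesterases, which cleave ester drugs and lipids, had 2 of 6 (Ces1d at 1.05, Ces1f at 1.04) and a median of 0.52. Sulfotransferases had 1 of 6 (Sult1a1 at 1.46) and a median of 0.14. The background of 2.02% applies to each of these small families. Their members are close copies, and their ratios are uncertain for that reason. Without the Cldn4-high cells the medians were 0.33 for the glucuronosyltransferases, 0.37 for the aldo-keto reductases and 0.28 for the carboxylesterases. Ugt2b5 (0.87), Ugt2b36 (0.89), Ces1d (0.72) and Ces1f (0.69) then came within 2-fold, while Akr1c19 (1.12) and Sult1a1 (1.10) stayed past it. Nqo1, a quinone reductase, was at 18.3 and 35.3 CPM (0.95).

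Cytochrome P450 enzymes of families 2 and 3, which oxidise drugs, differed both ways: 1 of 14 was at least 2-fold higher and 3 at least 2-fold lower, against 2.02% and 2.44% of all genes, with a median of 0.12. Cyp3a13 ran from 0 through 5.73 to 90.8 UMIs per 10000 in control and from 0 through 3.23 to 67.0 in coculture, overlapping throughout. It was at 1020.1 and 451 CPM, a log2 ratio of -1.18 (-1.22 to -1.13), and -0.89 without the Cldn4-high cells. Cyp3a11 (-1.94) and Cyp2c29 (-2.12) were lower too, but 1 cell held 34.8% and 43.7% of their UMIs in the library where they were higher. They were at -2.29 and -2.47 without the Cldn4-high cells. Cyp2j9 was higher, at 1.19, and at 0.87 without the Cldn4-high cells. The wider list of xenobiotic enzymes and pumps had 2 of 26 genes higher, 2 lower and a median of 0.10, near that of all genes.

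**Figure D3:**
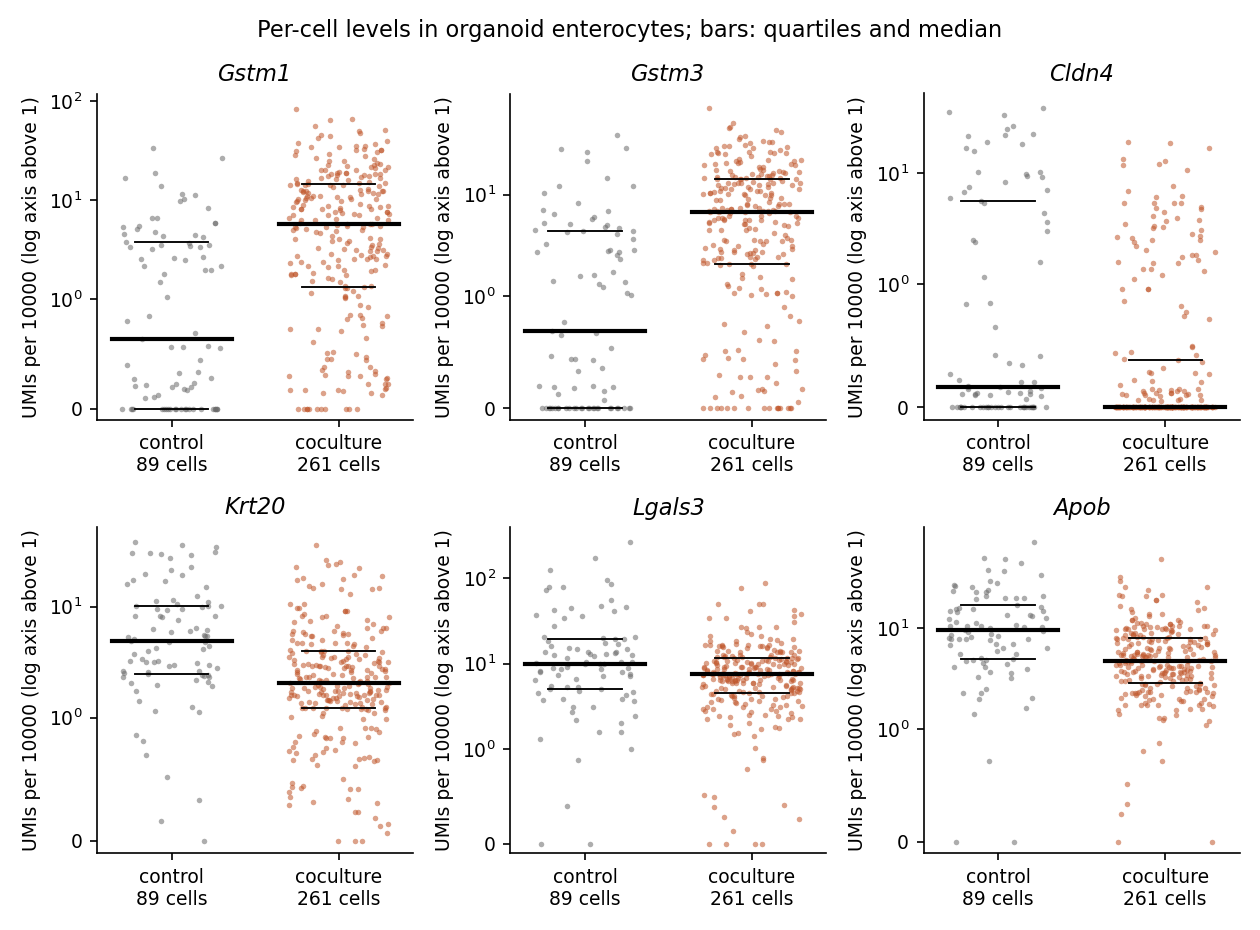
UMIs per 10000 in each cell (vertical axes, logarithmic above 1) of Gstm1, Gstm3, Cldn4, Krt20, Lgals3 and Apob in 89 control cells (grey) and 261 coculture cells (orange), with quartiles and the median as bars. Medians of Gstm1 are 0.632 and 5.69 and those of Krt20 4.86 and 2.03, with overlapping ranges in every panel.

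The list with the most lower genes was that of the cell cortex. Of 35 tested actin, keratin and junction genes 10 were at least 2-fold lower in coculture against a background of 2.44%, 0 were at least 2-fold higher and 33 lay below 0. The list median was -0.55, and the same list had a median of -0.55 in the other organoid cells. Without the Cldn4-high cells the list median was -0.18. Cldn4 is a member of this list, and the level that separates those cells was chosen after its values were seen. Their part in the difference was not tested.

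Krt20, a keratin of differentiated villus cells, had a per-cell level of 0, 4.86 and 38.2 UMIs per 10000 (lowest, median, highest) in control and 0, 2.03 and 35.7 in coculture. It reached 5 per 10000 in 44 of 89 control and 52 of 261 coculture cells. It was at 804 and 309 CPM, a log2 ratio of -1.38 (-1.43 to -1.33), and -0.67 without the Cldn4-high cells. Krt18, a keratin of simple epithelia, was at 1045 and 365 CPM (-1.52), and -0.32 without them. Krt8, its usual partner, was at -0.75, Krt7 at -1.005 (-0.028 without those cells) and Krt19 at -0.28. Krt23 was at -2.66, with 40.3% of its control UMIs in 1 cell, and at 0.35 without the Cldn4-high cells. The keratins' median of -1.005 was -0.028 without the Cldn4-high cells.

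Lgals3 encodes galectin-3, a lectin that binds surface glycans. It ran through 0, 10.0 and 266 UMIs per 10000 in control and 0, 7.49 and 88.1 in coculture. Its medians lay close while its upper tails did not. It was at 2342 and 943 CPM, a log2 ratio of -1.31 (-1.34 to -1.28), which was -0.18 without the Cldn4-high cells. The calcium-binding S100a6 (-1.49), S100a11 (-1.37) and S100a14 (-1.28) were lower, and without those cells were at -0.0099, -0.052 and 0.35. Capg, an actin-capping protein, was at -1.69 and Plec, a linker of keratins and actin, at -1.14. With those cells left out they were at 0.049 and -0.64.

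Among tight junction genes Cldn23 was at -2.04, and at -0.35 without the Cldn4-high cells. Cldn3 (-0.15), Cldn2 (-0.066) and Cldn7 (-0.35) lay within 2-fold and Cldn15, a claudin that forms cation pores, was at 0.68. Cdh1, which encodes E-cadherin, ran through 0, 2.33 and 9.64 UMIs per 10000 in control and 0, 1.27 and 14.2 in coculture. It was at 305 and 146 CPM (-1.06, -1.14 to -0.98), and -0.65 without the Cldn4-high cells. The small proline-rich proteins, cross-linked components of epithelial envelopes, had 5 of 5 tested genes at least 2-fold lower, against 2.44% of all genes, with a median of -1.45. With the Cldn4-high cells left out the median was -0.96, 2 of the 5 stayed past 2-fold (Sprr2a2 at -1.04 and Sprr2b at -1.01) and Sprr2f was at 0.82. They are close copies, and Sprr1a of that family was limited by the rule.

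Genes of attachment to the basement membrane included the lowest ratio among the genes named. Lama3 and Lamb3 encode laminin chains of the basement membrane. Lama3 had 146 UMIs in 20 control cells and 6 in 5 coculture cells, a log2 ratio of -6.37 (-7.84 to -5.21), and -2.13 without the Cldn4-high cells. Lamb3 was at -0.56. Most cells of both libraries held 0 UMIs of Lama3. Of 9 tested integrin genes, the receptors of matrix proteins, 3 were at least 2-fold lower against 2.44% of all genes: Itgb6 at -2.32, Itgav at -1.93 and Itga2 at -1.60. Of 8 annexins, calcium-dependent membrane binders, 3 were, against the same 2.44%: Anxa10 at -3.87, Anxa5 at -1.76 and Anxa3 at -1.71. None of these 6 genes stayed at least 2-fold lower without the Cldn4-high cells. The integrins were then at -0.20, -0.87 and -0.79, and their family median went from -0.75 to -0.34. Anxa10 was at -0.91, Anxa5 at -0.42 and Anxa3 at 1.14.

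The AP-1 motif lay upstream of several of these lower genes. The 37 bases around each copy in Capn2, S100a11, Duoxa2 and Cyp3a13 and the 31 around the copy nearest the start of Anxa10 are printed to show the letters shared with Cldn4, with the motif in capitals, from RefSeq on GRCm38.p6, 5′ to 3′ along each gene's strand.
Capn2 chr1:182517772-182517808 (minus strand): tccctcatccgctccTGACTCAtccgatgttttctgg
S100a11 chr3:93520345-93520381 (plus strand): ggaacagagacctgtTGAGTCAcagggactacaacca
S100a11 chr3:93520443-93520479 (plus strand): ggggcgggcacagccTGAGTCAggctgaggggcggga
Duoxa2 chr2:122298717-122298753 (plus strand): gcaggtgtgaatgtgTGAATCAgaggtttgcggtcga
Cyp3a13 chr5:137921689-137921725 (minus strand): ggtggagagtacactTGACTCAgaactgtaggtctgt
Anxa10 chr8:62123194-62123224 (minus strand): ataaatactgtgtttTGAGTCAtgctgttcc
The bases outside the capitals differ, and so does the middle base inside them, which is A in Duoxa2. Many lower genes lacked the pattern. The windows of Krt18, Krt20, Krt23, Itgb6, Lgals3, S100a6, Apob and Ada held no copy of it. A window of Gprc5a was not in the table used.

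The lowest genes with at most 20% of their UMIs in 1 cell included Lama3, Rab27b, Duox2, Gprc5a, Cldn4, Phldb2, Capn2, Rbms1 and Egfr. Rab27b, a GTPase of vesicle exocytosis, was at -3.26 (163 and 58 UMIs), and -1.21 without the Cldn4-high cells. Duox2, an oxidase that releases hydrogen peroxide at the apical surface, was at -3.20 (108 and 40 UMIs), but 0.31 without them. Gprc5a, an orphan receptor induced by retinoic acid, had 1016 and 503 UMIs (-2.78), and -1.51 without them. Phldb2, which anchors microtubules at the cell cortex, was at -2.72, the protease Capn2 at -2.51 and the RNA-binding Rbms1 at -2.44. Without the Cldn4-high cells they were at -0.20, -0.43 and 0.086. Leaving out the cells with other lineage markers put Phldb2 at -3.71. Of the genes just named, Lama3, Rab27b and Gprc5a kept a ratio below -1 when the Cldn4-high cells were left out.

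Epidermal growth factor signalling genes included the receptor Egfr among those past 2-fold. It was detected in 43 of 89 control and 78 of 261 coculture cells and ran to 2.07 and 1.97 UMIs per 10000. It was at 28.0 and 5.39 CPM, a log2 ratio of -2.38 (-2.72 to -2.04), and -0.77 without the Cldn4-high cells. Of the 9 tested genes of the list 3 were at least 2-fold lower (with Egfr the ligands Btc at -1.17 and Tgfa at -1.11), against 2.44% of all genes, 0 were at least 2-fold higher and 8 lay below 0. The ligands Areg (-0.90) and Hbegf (-0.79) and the coreceptors Erbb3 (-0.95) and Erbb2 (-0.49) lay within 2-fold. Lrig1, an inhibitor of the receptor, was at 0.25. Btc was at 0.34 and Tgfa at -0.64 without the Cldn4-high cells, so that with Egfr none of the 3 stayed past 2-fold, and the list median went from -0.90 to -0.48.

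Among immediate early genes 3 of 17 were at least 2-fold lower, against 2.44% of all genes, 0 at least 2-fold higher and 15 below 0. The list median was -0.44, and -0.21 without the Cldn4-high cells. Fosb, a partner of the Jun proteins, had 245 and 208 UMIs (-2.003, -2.28 to -1.73), and -1.99 without the Cldn4-high cells. Klf4, a factor of differentiated epithelium, was at 77.9 and 32.0 CPM (-1.29), and -0.88 without them. Klf6 was at -1.06, and -0.35 without them. Fos (-0.67), Atf3 (-0.63) and Junb (-0.075) lay within 2-fold.

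Villus tip genes, expressed in the oldest enterocytes, had 4 of 12 at least 2-fold lower (Ada, Egfr, Krt20 and Klf4) against 2.44% of all genes, 0 at least 2-fold higher and a median of -0.49. Ada, which deaminates adenosine, ran to 194 UMIs per 10000 in control and 6.61 in coculture, with a median of 0 in both. It was at 294 and 11.8 CPM, a log2 ratio of -4.64 (-4.83 to -4.45). In control 1 cell held 33.0% of its UMIs, and without that cell the ratio was -4.42. It was -4.97 without the Cldn4-high cells, and of the 4 it alone then stayed past 2-fold, with Egfr at -0.77, Krt20 at -0.67 and Klf4 at -0.88. The summed level of the tip list followed that of the rule genes across cells, with a Spearman correlation of 0.85 in control and 0.80 in coculture, so its level is not independent of how the cells were chosen. Villus base genes had 3 of 9 higher, against 2.02% of all genes. Of these Reg3b (5.87) and Reg1 (4.70) had 87.2% and 92.5% of their UMIs in 1 coculture cell. Without the cell with the most UMIs of the gene, Reg1 was at 0.97, within 2-fold, and Reg3b at 2.90. The control count of Reg3b was under the floor of 3 UMIs. Reg3g, an antimicrobial lectin, was at 1.02 and turned sign in some alternatives.

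**Figure D4:**
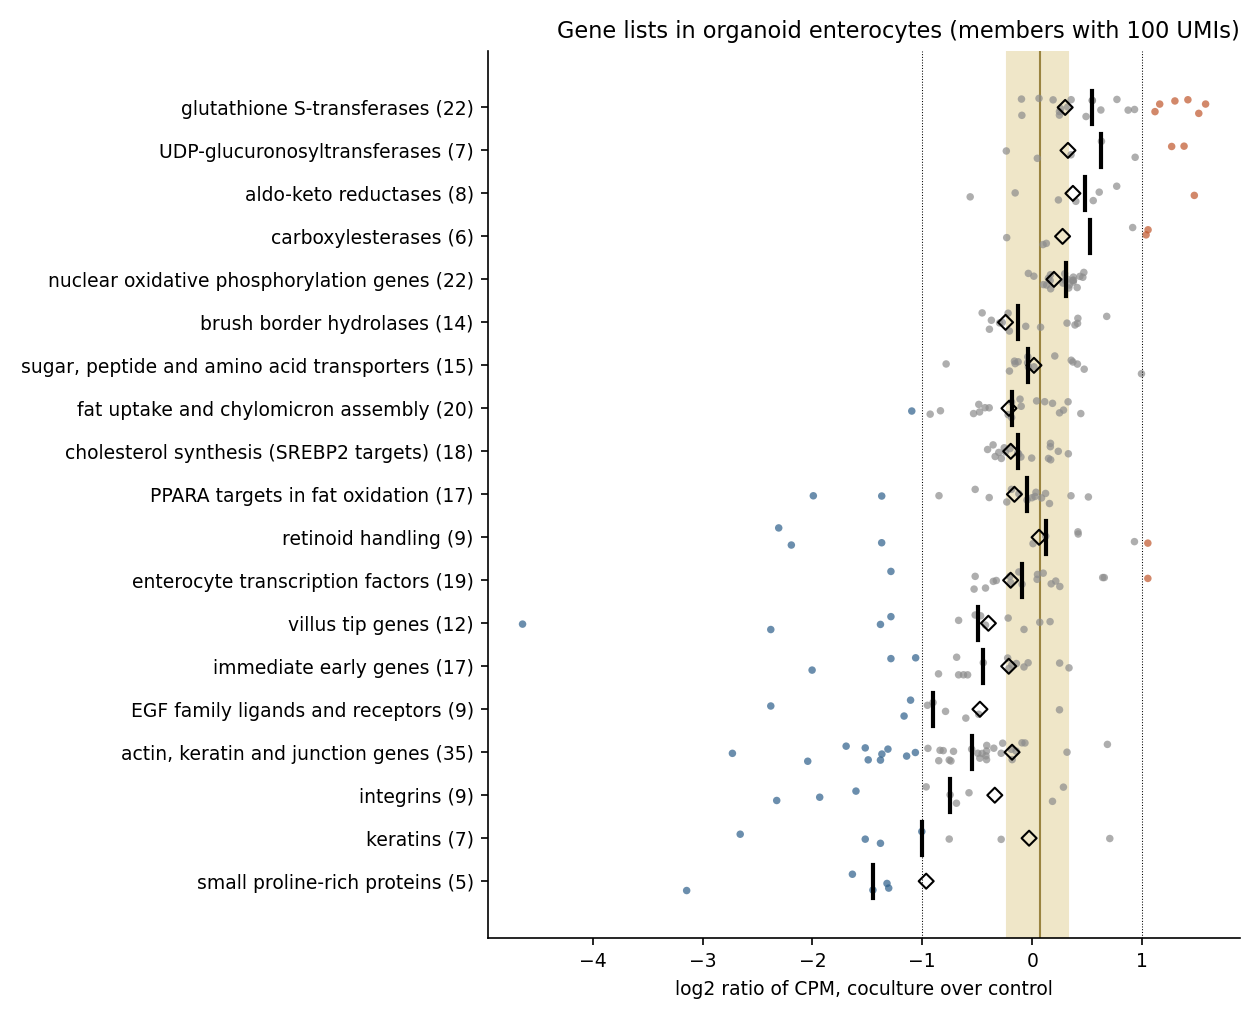
Log2 ratios of coculture over control (horizontal axis) for members of 19 gene lists or families, 1 point per tested gene, with the number tested in brackets, the median as a bar and the median without the Cldn4-high cells as an open diamond. The shaded band and line give the quartiles (-0.23 and 0.33) and the median (0.073) of all 7266 genes, and dotted lines 2-fold. Diamonds of keratins, integrins and junction genes lie nearer 0 than the bars.

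Most genes of the core absorptive lists lay within 2-fold between the libraries. Across cells the transporter list followed the rule genes, with a Spearman correlation of 0.55 in control and 0.66 in coculture. For the fat list below these values were 0.65 and 0.62. The levels of both lists are thus not independent of how the cells were chosen. The counts in this and the following lists stand against 2.02% of all genes at least 2-fold higher and 2.44% at least 2-fold lower. Of 14 brush border hydrolases 0 were past 2-fold in either direction, with a median of -0.13 and a range from -0.46 (Cdhr5) to 0.68 (Naaladl1). Lct, the lactase, was at -0.37 and Alpi, the alkaline phosphatase, at -0.39. Of 15 transporters of sugars, peptides and amino acids 0 were past 2-fold, with a median of -0.034 whose sign turned with the setting. Slc2a5, which carries fructose, was at 28.2 and 56.1 CPM (0.99), Slc5a1, the sodium-glucose cotransporter, at -0.21 and Slc15a1, the peptide transporter, at -0.78.

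Among fat handling genes Apob had the lowest ratio. Apob, on which chylomicrons are built, ran through 0, 9.45 and 70.6 UMIs per 10000 in control and 0, 4.76 and 48.0 in coculture. The ranges overlapped, and the coculture median lay below the lower quartile of control, 4.92. Apob was at 1179.8 and 552 CPM, a log2 ratio of -1.10 (-1.14 to -1.06). Without the Cldn4-high cells it was at -1.03, and with a minimum of 25 rule UMIs at -0.94, within 2-fold. It followed Apoa4 across cells, with a Spearman correlation of 0.58 in control and 0.59 in coculture. Apoa4 is among the genes that chose the cells, so whether the Apob difference depends on that choice was not tested. Apob also had a correlation of 0.53 and 0.50 with the mitochondrial share of a cell, and with at most 10% mitochondrial UMIs its ratio was -0.84, within 2-fold.

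It was the only 1 of 20 fat uptake and chylomicron genes past 2-fold, by a small margin, and the list median was -0.19. Mttp, which loads lipid onto apolipoprotein B, was at -0.43, Dgat2, which makes triglyceride, at -0.83 and the fatty acid receptor Cd36 at -0.93. Apoa1 was at -0.22 and Apoc3 at -0.19. Mogat2, an acyltransferase of monoglyceride, was at 0.44 and the fatty acid binding protein Fabp2 at 0.28. Cholesterol synthesis genes had 0 of 18 past 2-fold and a median of -0.13. Scarb1, a lipoprotein receptor, was at 24.3 and 8.98 CPM (-1.44, -1.74 to -1.13), and -1.73 without the Cldn4-high cells. Npc1l1, which takes up cholesterol, was at -0.22.

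Fat oxidation genes under the nuclear receptor PPARA had 2 of 17 at least 2-fold lower and a median of -0.047. Pdk4, a brake on pyruvate oxidation, was at -1.37, with 35.1% of its UMIs in 1 cell, and at -1.58 without the Cldn4-high cells.

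Retinoid genes differed both ways, with 1 of 9 at least 2-fold higher, 3 at least 2-fold lower and a median of 0.12. Bco1, which cleaves beta-carotene, was at 32.9 and 6.66 CPM (-2.31, -2.61 to -2.002), with 40 control and 54 coculture cells positive, and -2.63 without the Cldn4-high cells. Isx, a homeobox factor known to repress Bco1 and Scarb1, was at 13.4 and 27.8 CPM (1.05, 0.73 to 1.39), and 1.02 without them. Its call was not stable: Isx was past 2-fold in 9 of 14 other settings and ranged from 0.80 to 1.28. Rdh10, a retinol dehydrogenase, was at -1.37 but 0.038 without them. Aldh1a1, a retinal dehydrogenase, was at 0.93 and Rbp2 at 0.0074. The values of Bco1, Isx and Scarb1 rest on few UMIs per cell, with medians of at most 0.158 per 10000.

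Regional genes differed in part. Proximal small intestinal genes had 0 of 11 past 2-fold and a median of -0.042. Distal genes had 1 of 10 higher (Ces1f) and 2 lower: Slc10a2, the ileal bile acid transporter, at 31.9 and 7.27 CPM (-2.13, -2.43 to -1.83) and Clca4b at -1.62. Slc10a2 had 25.2% of its control UMIs in 1 cell and was at -1.80 without the Cldn4-high cells, where Clca4b was at -1.08. Both stayed at least 2-fold lower in every setting run. Enterocyte transcription factors had a median of -0.092 over 19, with Hnf4a at -0.42 and Hnf4g at 0.10, and only Isx and Klf4 past 2-fold.

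Of the signalling lists, bone morphogenetic protein genes had 1 of 8 past 2-fold and a median of -0.30. Id2, a target of that pathway, was at 14.3 and 39.5 CPM (1.47, 1.16 to 1.79), and 1.43 without the Cldn4-high cells. Id1 (0.52), Id3 (0.44) and the inhibitor Smad7 (-0.90) lay within 2-fold. WNT target and stem genes had 0 of 7 past 2-fold and a median of -0.10, and reelin receptors and their adaptor 0 of 5 and -0.58. Interferon response genes had 0 of 18 and a median of 0.22, p53 targets 0 of 9 and 0.10, and apoptosis and shedding genes 0 of 13 and -0.32.

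Nuclear oxidative phosphorylation genes had 0 of 22 past 2-fold, 21 above 0 and a median of 0.31, which was 0.20 without the Cldn4-high cells. The upper quartile of all genes was 0.33. Hypoxia and glycolysis genes had 0 of 22 past 2-fold and a median of 0.095. Genes of iron, copper, calcium and zinc handling had 0 of 15 past 2-fold. Metallothioneins, which bind zinc and copper, were at 0.77 (Mt1, 3805 and 6468 CPM) and 0.56 (Mt2). Heat shock and endoplasmic reticulum stress genes had 1 of 19 lower (Hspa1b at -1.65, and -0.72 without the Cldn4-high cells) and a median of -0.13. Redox genes had 1 of 21 higher (Gstm1), 2 lower (Duox2 and its maturation factor Duoxa2, at -2.37) and a median of 0.13. Duox2 was at 0.31 and Duoxa2 at 1.75 without the Cldn4-high cells.

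The 10 highest genes with at most 20% of their UMIs in 1 cell were Adgrg4, Syt13, Tnfaip2, Selenom, Fmo1, Ung, Top1mt, Nupr1, Gstm1 and Fundc2, and most were low. The minimum of 100 UMIs stands for 14.9 CPM in control and 4.38 in coculture. Genes as low as Adgrg4, Syt13, Tnfaip2, Selenom and Fmo1 could thus enter only through coculture, and their rank follows in part from that filter. Adgrg4, an adhesion receptor, had 0 UMIs in control and 141 in 11 coculture cells, at least 13.8-fold higher against a floor of 3 UMIs. Without the cells carrying other lineage markers too few UMIs were left to give it a direction. Syt13, a synaptotagmin, had 5 and 106 UMIs in 1 and 10 cells (2.64). With the cells carrying other lineage markers left out Syt13 had 3 or fewer UMIs in both libraries and so no ratio. Most coculture UMIs of Adgrg4 and Syt13 thus came from cells that went against the label. Too few were also left to give Syt13 a direction when Fabp1 and Rbp2 had to reach 100 per 10000. Fmo1, a flavin monooxygenase of xenobiotics, had 10 and 150 UMIs in 6 and 61 cells (2.14, 1.22 to 3.23). Tnfaip2, induced by tumour necrosis factor, had 6 and 111 UMIs (2.44), and Selenom, a selenoprotein of the endoplasmic reticulum, 11 and 169 (2.17). Nupr1, a stress-induced nuclear protein, had 79 and 895 UMIs (1.74), but -0.062 with no regenerative limit. Ung, which removes uracil from DNA, was at 2.08, the mitochondrial topoisomerase Top1mt at 1.74 and the mitochondrial membrane protein Fundc2 at 1.57. With a minimum of 25 rule UMIs Selenom (0.74), Ung (0.59), Top1mt (0.31) and Fundc2 (0.68) were within 2-fold. Without the cells carrying other lineage markers Selenom was at 1.16, Fmo1 at 2.81 and Ung at 2.53.

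The same contrast was read in the 1227 organoid cells outside the set, which shared the libraries with it. There 81 of 10521 genes were at least 2-fold higher (0.77%) and 274 at least 2-fold lower (2.6%), with a median of -0.069. Gstm3 was at 1.55 there, Gstm1 at 0.97, Cldn4 at -1.97, Krt20 at -1.59, Lgals3 at -1.60, Lama3 at -6.85 and Apob at -0.91, each with the same sign as in enterocytes. Other genes had different values in the set and outside it. Cd36 was at -0.93 in enterocytes and 2.25 in the other cells, Cyp2c29 at -2.12 and 1.94, Bco1 at -2.31 and -0.38, and Lct at -0.37 and 3.44. Gsta3 (1.52 and 0.35), Gstp3 (1.16 and 0.076) and Id2 (1.47 and 0.36) had larger ratios in the set than outside it. These differences between cell sets were not tested, as each rests on 1 library per condition.

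**Figure D5:**
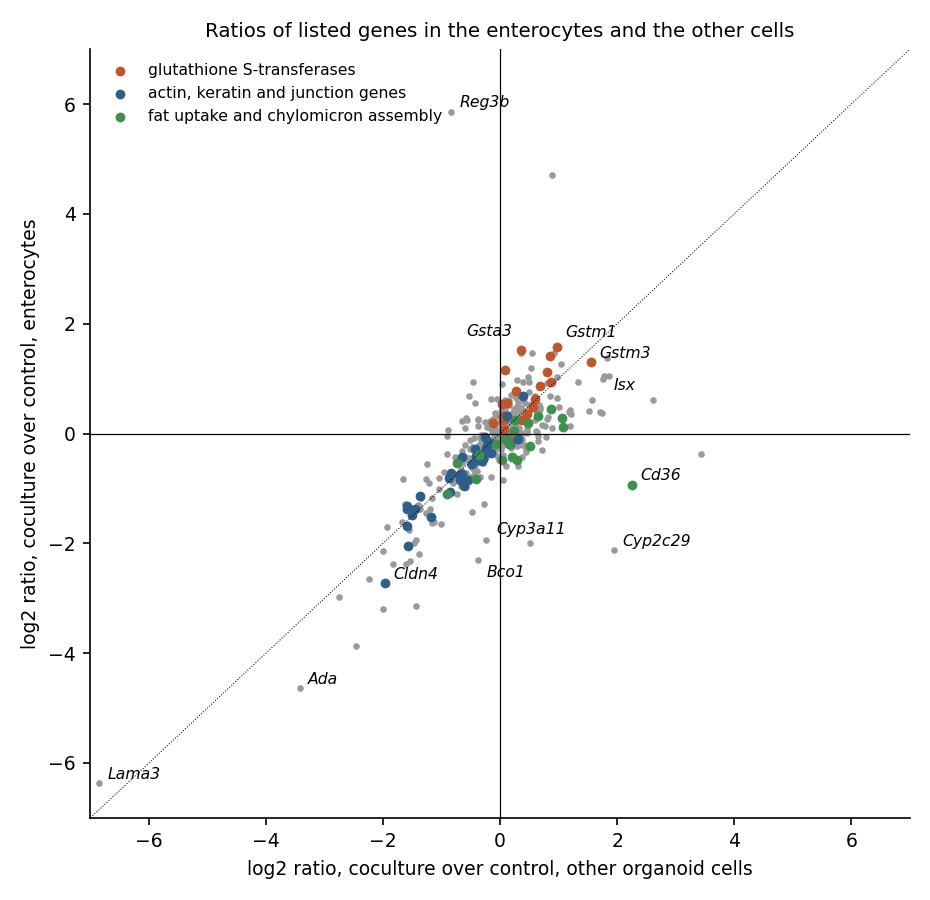
Log2 ratio of coculture over control in the enterocytes (vertical axis) against that in the other organoid cells of the same libraries (horizontal axis), 1 point per listed gene, with the dotted line of equal values. Lama3, Ada and Cldn4 have negative values on both axes and Gstm3 positive ones, whereas Cd36 (-0.93 and 2.25) and Cyp2c29 (-2.12 and 1.94) differ in sign.

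Levels in the 231 small intestinal tissue cells chosen by the same rule give a scale for the culture values, without a comparison, since dissociation, depth (a median of 34794 UMIs) and cell sources differ. Apob was at 733 CPM in tissue, between the control and coculture values. Krt20 was at 844 CPM in tissue, nearer control, and Gstm3 at 257 CPM, below both cultures. Cldn4 was at 8.84 CPM and Gprc5a at 2.09, below both cultures. Anpep was at 884 CPM, above both. Reg3b, at 0.149 and 26.1 CPM in culture, was at 24286 CPM in tissue.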

How the data were processed

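Single-cell RNA was measured in 1 control and 1 coculture organoid library, with 1 small intestinal tissue library for levels. The deposited matrices hold raw UMI counts per gene and barcode; per the file headers they were written by Cell Ranger 6.0.1, and per the submitters' processing notes reads were mapped to mm10. The annotation release is not given in the sources used here. Counts were summed over the set's cells in each library and divided by their total. The log2 ratio used a floor of 3 counts. Genes with at least 100 UMIs in the library with the higher CPM were compared, and a ratio of 1 or more either way was called past 2-fold. Poisson and Clopper-Pearson 95% intervals cover counting error only, since 1 library per condition gives no replicate. Named genes are the markers and rule genes, the 10 highest and 10 lowest ratios with no more than 20% of their UMIs from 1 cell, leaving out mitochondrial, ribosomal protein and unnamed genes, and in each list the members past 2-fold or at its extremes; other genes were chosen after their values were seen. Some named genes are not reported here. Members and lists were chosen with earlier results of these data known, and the 14 families, the Cldn4 limit and 4 of the alternatives after values were seen. Promoter windows were matched by symbol for 5845 of 7266 genes. No doublets were removed; removing the highest Scrublet scores took 5 and 12 barcodes, of which 0 were in the set. Alternatives covered the limits of the rule, scaling, thinning, gene minimum and cells left out. Scripts ran in Python 3.11.15 with numpy 2.4.6, scipy 1.17.1 and scanpy 1.11.5 and were tested on simulated data.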

Additional observations from a re-analysis of the deposited data

How the results depend on the processing

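The set's share was higher in coculture under all 9 other choices of cells (5.73 to 11.6 points). The number of tested genes changed with the setting. At least 2-fold higher were 93 of 6770 with a minimum of 100 rule UMIs and 97 of 7034 without cells carrying other lineage markers. With each cell thinned to 10000 UMIs 50 of 2215 were. The count was 395 of 9810 with at least 30 UMIs, 51 of 4419 with at least 300 and 45 of 5844 with at least 15 CPM. The lower count was 40 of 2215 thinned, 291 of 9810 with at least 30 UMIs, 92 of 4419 with at least 300 and 39 of 6626 without the Cldn4-high cells. Fewer genes pass the minimum when thinned. Of 90 listed genes past 2-fold, 85 or more kept their direction in each setting except the last, where 78 did and 44 stayed past 2-fold. Without the Cldn4-high cells Rdh10 was at 0.038, Rbms1 0.086, Duox2 0.31, Duoxa2 1.75, S100a14 0.35, Sprr2f 0.82, Btc 0.34, Anxa3 1.14, Capg 0.049, Krt23 0.35 and Ly6d 1.06. With a minimum of 25 rule UMIs Reg3g was at -0.23, Fcgbp at -0.19 and the goblet median at -0.061. Thinned, Reg3g was at -0.0056. With no regenerative limit Nupr1 was at -0.062. Without other lineage markers Fcgbp was at -0.14 and Sct at -0.48. With Fabp1 and Rbp2 at 100 or more Sct was at -0.36. The cause of these turns was not tested. Adgrg4 (-1.33) without other lineage markers and Syt13 (-0.70) with that Fabp1 and Rbp2 level had no control UMIs; these are lower bounds set by the floor and show no turn. Scaling moved all ratios by 0.03 or 0.04. Rows with 3 or fewer UMIs in both libraries give no ratio. No paired analysis was possible because each condition has 1 library. Genes under 100 UMIs and any spread between cultures are beyond these data.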
